A study of Mus musculus with 4 samples.

Results

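The 32 genes described here encode the contractile proteins of striated muscle, the proteins that hold the sarcomere together, and a few membrane, calcium and assembly proteins of the muscle fibre. They were taken from a written list of gene symbols, and a probe set was found by Entrez number for 32 of 32, among 16492 probe sets that are not controls. The list was chosen with earlier results of these data known. A count of members beside a share of all probe sets is therefore a description and not a test. Expression had been measured on 4 arrays of mouse limbs at E12.5, with fore- and hindlimbs together and the RNA of 2 to 4 littermates of one genotype pooled for each array. The 2 transgenic pools came from embryos carrying human SHOX under the rat Col2a1 promoter and enhancer, which direct expression to cartilage, and the 2 wildtype pools came from littermates without the transgene; all 4 are labelled C57BL/6, from founders made in C57BL/6 x DBA/2 hybrid eggs. By a suffix that the array titles share, the arrays form 2 hybridization experiments of 1 transgenic and 1 wildtype array, numbered 1 and 2 without regard to time. The sources used here give neither the transgenic line that was hybridized nor the sex of the embryos, and the level of the transgene was not analysed here. The study reported low transgene levels that varied among animals, and by in situ hybridization saw the transgene around the cartilage anlagen at E12.5. It described the pattern at that stage as similar to that of Col2a1.

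In the sarcomere, thick filaments of myosin slide along thin filaments of actin when calcium binds the troponin complex and moves tropomyosin aside. Most of these proteins exist as embryonic, slow, fast and cardiac forms encoded by separate genes, and the first myotubes of the limb make a mixture of them, including forms that the adult animal keeps mainly in the heart. In the limb these genes are switched on as myoblasts leave the cell cycle and fuse, under myogenic factors that bind E-boxes together with MEF2 and serum response factor, the protein that binds CArG boxes.

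The 32 members were ordered into 8 classes. The developmental myosin heavy chains were Myh3 (embryonic) and Myh8 (perinatal). The slow class held Myh7, Tnnt1, Tnni1 and Tnnc1, of which Myh7 and Tnnc1 are shared with the heart. The fast class held Mylpf, Tnnt3, Tnni2 and Tnnc2, and the cardiac-type class held Actc1, Tnnt2, Myl4 and Myl7. Acta1, the skeletal alpha actin, stood alone. A further 10 genes encode filament, Z-disc and M-line proteins, 4 act at the membrane or in calcium handling, and 3 in energy supply or myofibril assembly.

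The sequences just before the starts of 10 members are printed, because these genes carried the comparisons below: the 4 whose level differed most between the experiments (Myl4, Mylpf, Tnnc1, Tnnc2), Casq2, the actins Acta1 and Actc1, Myl7, the member furthest below 0 by genotype, and Tpm2 and Ryr1, which were higher in experiment 2. Each is the 150 bases before the start in RefSeq on GRCm38.p6, read 5′ to 3′ on the strand of the gene. On the plus strand these were Myl4 (chr11:104550513-104550662), Mylpf (chr7:127211458-127211607), Tnnc1 (chr14:31208162-31208311) and Casq2 (chr3:102086265-102086414). On the minus strand they were Tnnc2 (chr2:164779735-164779884), Acta1 (chr8:123894776-123894925), Actc1 (chr2:114052876-114053025), Myl7 (chr11:5898783-5898932), Tpm2 (chr4:43523555-43523704) and Ryr1 (chr7:29125152-29125301). The windows of Myl4 and Mylpf lie wholly, and those of Tpm2 and Ryr1 in part, inside the annotated span of the gene, which has another start further upstream; the other 6 lie outside it. Capitals mark E-boxes (Mylpf, Tnnc1, Tnnc2, Casq2), CArG boxes (Acta1, Actc1, Myl7), the MEF2 site of Casq2, which lies before its E-box, and the TATA box at the end of the Acta1 sequence.
Myl4: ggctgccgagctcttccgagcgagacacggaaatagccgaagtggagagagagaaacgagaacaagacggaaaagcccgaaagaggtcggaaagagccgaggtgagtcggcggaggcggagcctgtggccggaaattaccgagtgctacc
Mylpf: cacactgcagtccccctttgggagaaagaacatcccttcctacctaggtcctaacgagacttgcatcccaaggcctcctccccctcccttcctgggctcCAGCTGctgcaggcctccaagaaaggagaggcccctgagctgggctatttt
Tnnc1: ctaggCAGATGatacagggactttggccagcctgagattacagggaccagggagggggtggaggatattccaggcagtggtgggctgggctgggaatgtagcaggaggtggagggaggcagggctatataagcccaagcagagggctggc
Tnnc2: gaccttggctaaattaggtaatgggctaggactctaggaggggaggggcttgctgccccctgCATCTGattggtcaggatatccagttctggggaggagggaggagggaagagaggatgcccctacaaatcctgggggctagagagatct
Casq2: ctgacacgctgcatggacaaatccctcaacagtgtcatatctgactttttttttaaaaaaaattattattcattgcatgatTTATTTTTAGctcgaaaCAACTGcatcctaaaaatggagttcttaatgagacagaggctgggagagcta
Acta1: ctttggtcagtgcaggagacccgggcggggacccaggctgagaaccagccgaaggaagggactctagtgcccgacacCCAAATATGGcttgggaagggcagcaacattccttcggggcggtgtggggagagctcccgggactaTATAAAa
Actc1: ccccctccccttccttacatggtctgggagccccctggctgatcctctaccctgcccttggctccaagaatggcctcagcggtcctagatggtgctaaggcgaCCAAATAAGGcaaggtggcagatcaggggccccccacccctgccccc
Myl7: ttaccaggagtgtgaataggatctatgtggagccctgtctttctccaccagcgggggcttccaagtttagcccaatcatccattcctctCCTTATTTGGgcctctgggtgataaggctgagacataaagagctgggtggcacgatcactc
Tpm2: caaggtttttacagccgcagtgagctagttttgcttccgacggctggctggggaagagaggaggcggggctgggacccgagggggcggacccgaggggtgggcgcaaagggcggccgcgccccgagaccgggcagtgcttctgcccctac
Ryr1: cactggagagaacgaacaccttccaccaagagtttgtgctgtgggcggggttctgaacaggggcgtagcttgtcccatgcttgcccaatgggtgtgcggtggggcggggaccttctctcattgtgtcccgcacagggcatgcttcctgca

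The 250 bases before the start were searched on both strands in 33 windows, which cover 29 of the 32 members, and in all 32851 windows of the same length. No window was at hand for Neb, Tnnt3 and Tnni2. An E-box (CANNTG) was found in 81.8% of the members' windows and in 66.2% of all windows. A CArG box was found in 18.2% and 1.47%, in the windows of Acta1, Actc1, Ldb3, Myl7 and Myom1, and a MEF2 site in 15.2% and 2.92%, in those of Casq2, Klhl41, Myh8, Myoz2 and Ttn. A TATA box (TATAAA), which may lie inside a MEF2 site, was found in 18.2% and 12.4%, and ATTA, the core letters bound by homeodomain proteins such as SHOX, in 39.4% and 54.9%. A match is a run of letters in a window, and whether a factor binds there was not measured.

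The members differed more between the experiments than between the genotypes, as the map of the members' values by array shows. Their median log2 value was 8.41 in transgenic and 8.07 in wildtype limbs of experiment 2, and 8.77 in transgenic and 8.72 in wildtype limbs of experiment 1. Over all probe sets that are not controls, the medians of the 4 arrays lay between 7.81 and 7.85. The mean signal of 22 members was above the 50th percentile of all probe sets, and that of 31 above the 25th; the member below it was Myl7. Signal over background is not known for these values.

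**Figure D1:**
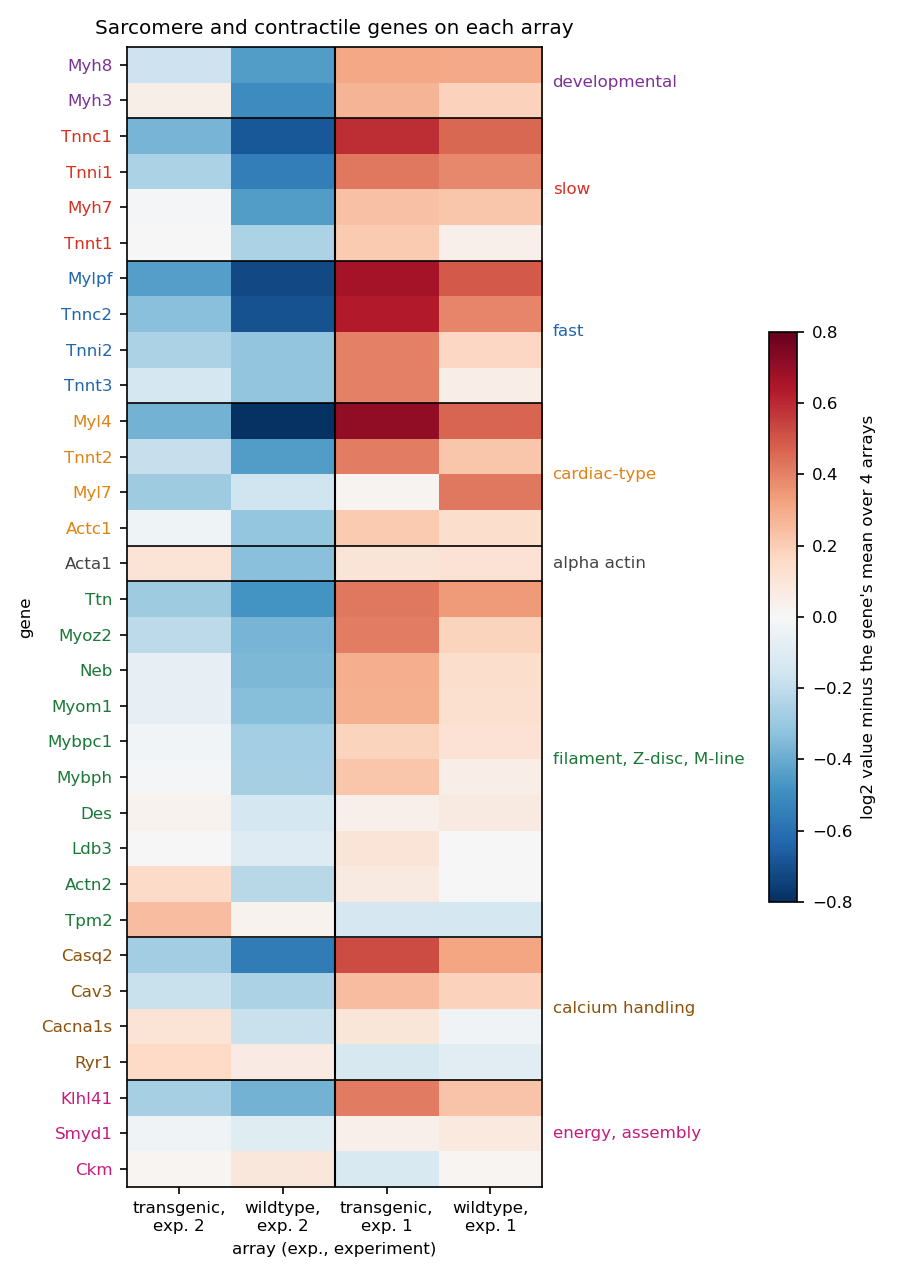
Log2 value of each of the 32 members (rows, grouped by class) on each of the 4 arrays (columns), shown as the difference from the gene's mean over the 4 arrays (colour scale, log2 units). Most rows are low on both arrays of experiment 2 and lowest on its wildtype array; Tpm2, Ryr1 and Ckm run the other way.

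By genotype, 30 of 32 members had a higher mean in transgenic than in wildtype limbs, with log2 fold changes between -0.26 and 0.33 and a median of 0.20, against a median of -0.01 over all probe sets. With 1 array left out and no block, 15 of 32 were higher without transgenic replicate 1 and 8 of 32 without wildtype replicate 2. In bulk RNA of pooled littermates, the number of muscle cells, the RNA per muscle cell and the makeup of the pools cannot be told apart. In limma without a term for the experiment, 0 of 32 members passed an adjusted p under 0.05, as did 0% of all probe sets, and 0 members had an unadjusted p under 0.05, against 32 of 16492 probe sets. The lowest unadjusted p of a member was 0.0759, for Cacna1s. The thresholds that the study named for a change in both experiments, a log2 change beyond 0.2 with an unadjusted p under 0.05, were applied here to one fit over both experiments, called the fold rule. In the upward direction it was met by 0 members and by 0.133% of probe sets. With the experiment as a replicate block, it was met by 16 of 32 members in the upward direction, against 1.23% of probe sets, and by 1 member, Myl7, in the downward direction (a log2 change below -0.2), against 0.321%. The fold rule does not ask for a change in each experiment: the difference between the transgenic and the wildtype array was above 0.2 in both experiments for 3 members, Myl4, Tnnc2 and Casq2, against 0.418% of probe sets, and 1 array per genotype gives no p within an experiment. With the block, limma called 2 members higher at an adjusted p under 0.05 (Myl4 and Tnnc2), against 0.255% of probe sets. The standard errors of the members lay between 0.09 and 0.57 without the block and between 0.06 and 0.08 with it, as the plot of genotype changes shows.

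**Figure D2:**
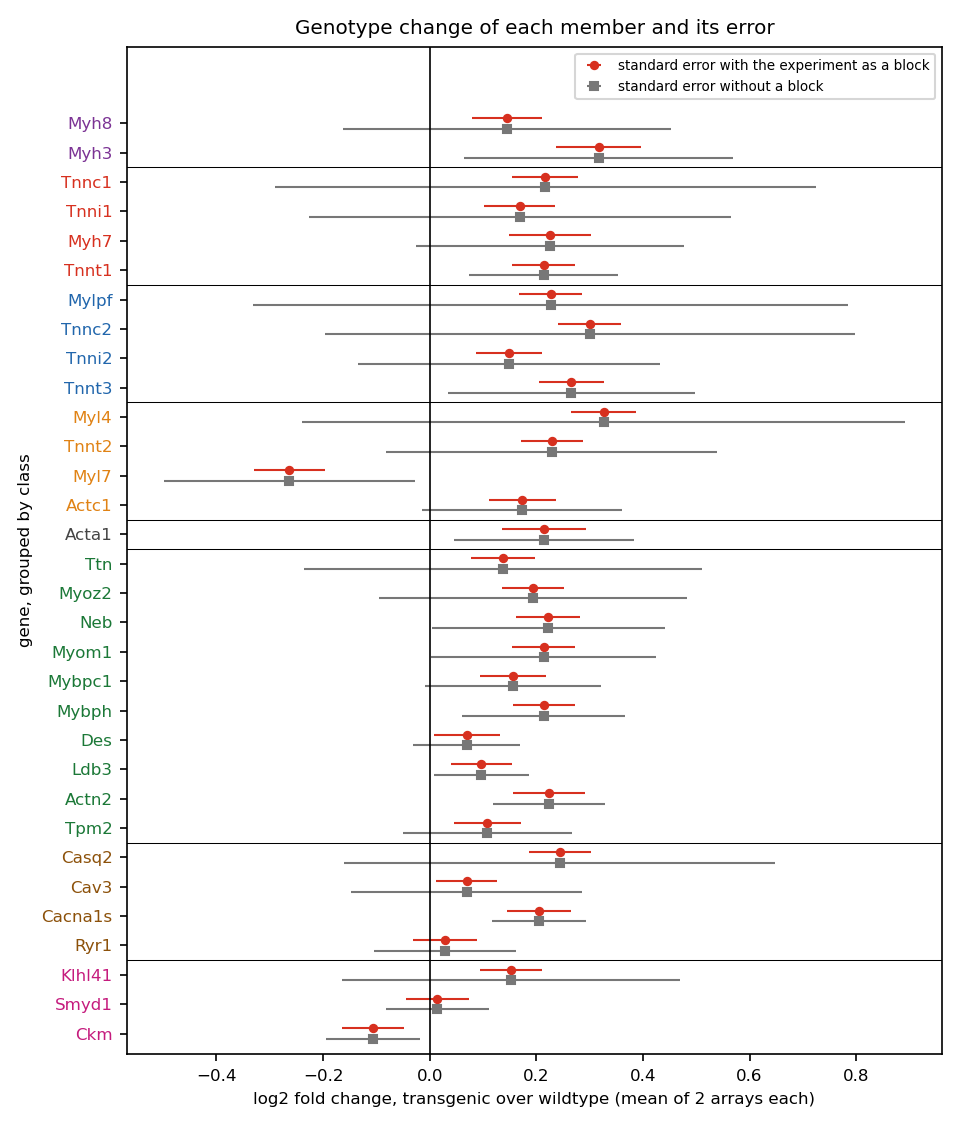
Log2 fold change of each member, transgenic over wildtype (x axis, log2 units; means of 2 arrays each), with 1 limma standard error, blocked by experiment (red circles) or not (grey squares). The points are the same in both fits; 30 of 32 lie above 0, and most bars without the block cross 0.

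For most members the signed genotype difference was higher in experiment 2. In both experiments the transgenic array was the higher one for 26 of 32 members, against 22.4% of all probe sets. Taken with its sign, the genotype difference was higher in experiment 2 than in experiment 1 for 27 members, against 49.5% of probe sets. The exceptions were Tnnt3, Tnni2, Klhl41, Myoz2 and Ldb3. The 27 include Myl7 and Ckm, whose differences were below 0 and smaller in size in experiment 2. The shift was not particular to the members. In lists described below, it was seen for 17 of 20 other sarcomere, 6 of 6 cartilage and 4 of 4 erythroid genes. It was also seen for 7 of 9 heart muscle, 5 of 7 neuromuscular, 5 of 8 smooth muscle and 8 of 13 myogenic genes. Neuron genes had 0 of 5 and epidermis genes 1 of 6. The median difference of the members was 0.26 in experiment 2 and 0.09 in experiment 1, against -0.01 and -0.01 over all probe sets. Both transgenic arrays lay above both wildtype arrays for 2 members, Actn2 and Cacna1s, against 5.67% of probe sets. Each experiment holds 1 array of each genotype, so whether the genotype difference differed between the experiments could not be tested.

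**Figure D3:**
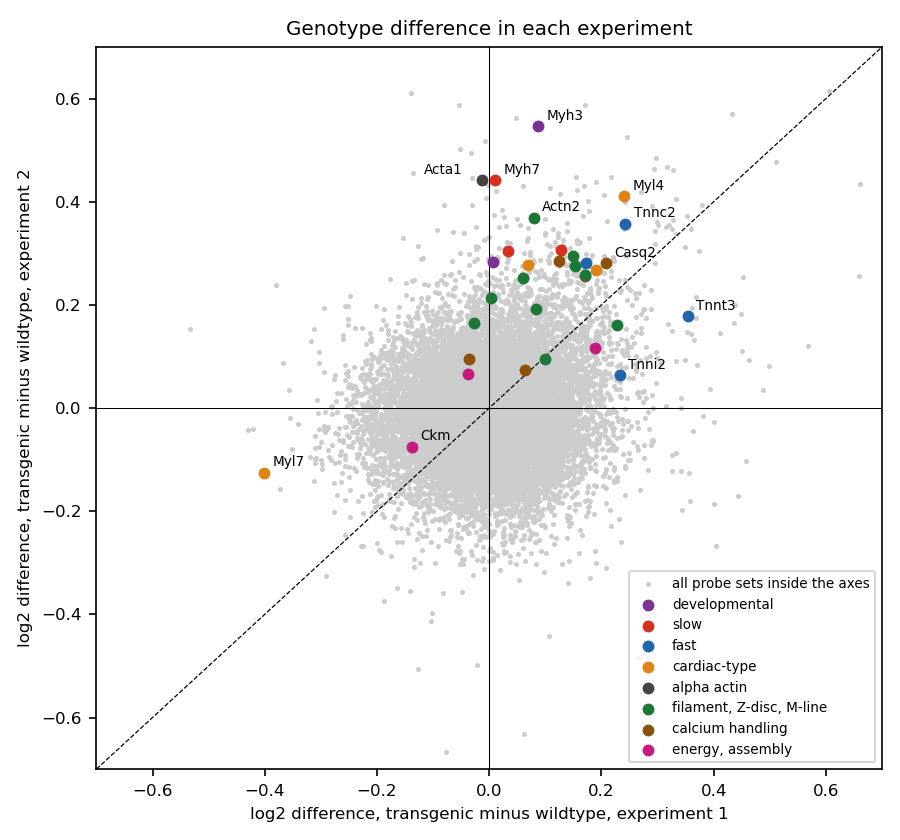
Difference between the transgenic and the wildtype array in experiment 1 (x axis) and experiment 2 (y axis), in log2 units, for the 32 members (coloured by class) and for all other probe sets inside the axes (grey); the dashed line marks equal differences. Of the members, 27 lie above the line, with Myh3, Myh7 and Acta1 near the y axis and the fast isoforms Tnnt3 and Tnni2 below the line.

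Of the developmental myosin heavy chains, Myh3 had the larger genotype difference and Myh8 the larger difference between experiments. Myh3, the motor of embryonic fibres, had log2 values of 11.15 and 11.37 in transgenic limbs of experiments 2 and 1, against 10.60 and 11.28 in wildtype limbs of the same experiments. Its wildtype array of experiment 2 stood below the other 3. Its log2 fold change by genotype was 0.32 (standard error, SE, 0.25 without the block and 0.08 with it; limma adjusted p = 0.144 with the block), with 0.55 for experiment 2 and 0.09 for experiment 1. Between the experiments, where every change is given as experiment 2 relative to experiment 1, Myh3 fell by 0.45 on the log2 scale (limma adjusted p = 0.000194 with genotype as a term). Myh8, which follows Myh3 in later fibres, had a genotype change of 0.15 and a difference between experiments of -0.61.

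The 4 slow isoforms had a median genotype change of 0.22, with 3 of 4 past the fold rule with the block, and 4 of 4 fell between the experiments. Tnnc1, the troponin C of slow fibres and heart, had 10.25 and 11.21 in transgenic limbs of experiments 2 and 1, against 9.94 and 11.08 in wildtype limbs. Both arrays of experiment 2 lay below both arrays of experiment 1, and the transgenic array was the higher one in each. Its difference between experiments was -1.05 (SE 0.06, limma adjusted p = 1.51e-09 with genotype as a term), and its genotype change was 0.22 (adjusted p = 0.232 with the block). Tnni1, the slow troponin I, fell by 0.81 on the log2 scale between experiments and had a genotype change of 0.17. Myh7, the slow and cardiac beta myosin heavy chain, had genotype differences of 0.44 in experiment 2 and 0.01 in experiment 1, and fell by 0.46 between experiments. Tnnt1, the slow troponin T, had 0.26 in experiment 2 and 0.17 in experiment 1 and fell by 0.25 between experiments.

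The 4 fast isoforms had the largest median difference between experiments of the 8 classes, -0.80, and a median genotype change of 0.25. Mylpf, the phosphorylatable light chain of fast myosin, had 10.56 and 11.66 in transgenic limbs of experiments 2 and 1, against 10.28 and 11.49 in wildtype limbs. Its mean in experiment 2 was 0.448 times that in experiment 1 on the linear scale, a log2 difference of -1.16 (SE 0.06, limma adjusted p = 4.79e-10 with genotype as a term). By genotype it differed by 0.23 (adjusted p = 0.158 with the block). Tnnc2, the troponin C of fast fibres, had 9.33 and 10.30 in transgenic limbs of experiments 2 and 1, against 8.97 and 10.06 in wildtype limbs. The transgenic array was the higher one in both experiments, and the wildtype array of experiment 1 lay above the transgenic array of experiment 2. Tnnc2 rose in transgenic limbs by 0.30 on the log2 scale with the block (SE 0.06, limma adjusted p = 0.0373), against a standard error of 0.50 without it, and fell by 1.03 between experiments.

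The other fast isoforms, both of the troponin complex, had their larger genotype difference in experiment 1. Tnnt3, the fast troponin T, had 7.06 and 7.61 in transgenic limbs of experiments 2 and 1, against 6.89 and 7.25 in wildtype limbs. Its genotype difference was 0.18 in experiment 2 and 0.35 in experiment 1, and its fold change was 0.27 on the log2 scale (SE 0.06, limma adjusted p = 0.105 with the block). Tnni2, the fast troponin I, had 0.06 in experiment 2 and 0.23 in experiment 1. The median genotype difference of the fast class was 0.23 in experiment 2 and 0.24 in experiment 1, that of the slow class 0.31 and 0.08, and that of the developmental myosin heavy chains 0.42 and 0.05. Whether the classes differ was not tested, since their members share the same 4 arrays.

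The cardiac-type class held the largest increase by genotype among the members, in Myl4, and the largest decrease, in Myl7. Myl4, the light chain of embryonic muscle and atrium, had 9.25 and 10.33 in transgenic limbs of experiments 2 and 1, against 8.83 and 10.09 in wildtype limbs. Myl4 rose in transgenic limbs by 0.33 with the block (SE 0.06, limma adjusted p = 0.0237), with 0.41 for experiment 2 and 0.24 for experiment 1, and the standard error without the block was 0.57. Its mean in experiment 2 fell to 0.443 times that in experiment 1 on the linear scale, a log2 difference of -1.17 (SE 0.06, limma adjusted p = 5.27e-10 with genotype as a term). That difference ranked 10 from the lowest among 16492 probe sets, and those of Mylpf, Tnnc1 and Tnnc2 ranked 12, 20 and 21. Below -1 on this scale lay 4 members, these 4 genes, and 0.127% of all probe sets.

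Myl7, the atrial regulatory light chain, had 6.36 and 6.67 in transgenic limbs of experiments 2 and 1, against 6.49 and 7.07 in wildtype limbs. The wildtype array of experiment 1 stood above the other 3, and the transgenic array was the lower one in both experiments. Its log2 fold change was -0.26 (SE 0.07, limma adjusted p = 0.144 with the block), and it ranked 16483 of 16492 from the highest. Tnnt2, the cardiac troponin T that is also made in embryonic skeletal muscle, had 8.53 and 9.12 in transgenic limbs of experiments 2 and 1, against 8.26 and 8.93 in wildtype limbs. Its genotype change was 0.23 (SE 0.06, limma adjusted p = 0.145 with the block), and it fell by 0.63 between experiments. Actc1, the cardiac alpha actin and the main alpha actin of embryonic skeletal muscle, had genotype differences of 0.28 in experiment 2 and 0.07 in experiment 1 and fell by 0.35 between experiments.

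**Figure D4:**
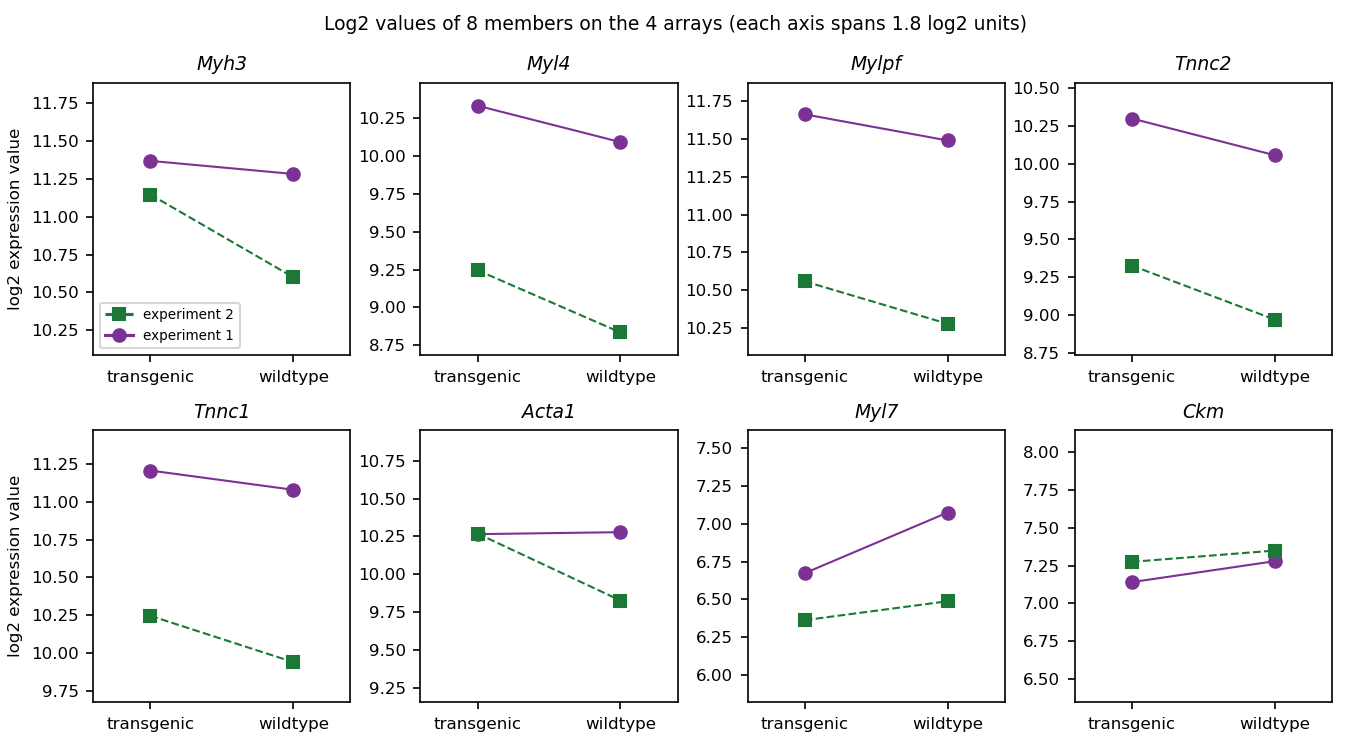
Log2 expression value (y axis, each panel spanning the same range) of 8 members in transgenic and wildtype limbs (x axis), with 1 point per array; lines join the arrays of one experiment (green squares, experiment 2; purple circles, experiment 1). Myl4, Mylpf, Tnnc1 and Tnnc2 show experiment 2 below experiment 1 by about the same distance in both genotypes, Myh3 and Acta1 show a low wildtype array in experiment 2, and Myl7 and Ckm slope the other way, with the wildtype array higher.

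Acta1, the alpha actin of adult skeletal muscle, had 10.27 and 10.26 in transgenic limbs of experiments 2 and 1, against 9.83 and 10.28 in wildtype limbs. A single array, the wildtype one of experiment 2, stood apart from the other 3. Its genotype difference was 0.44 in experiment 2 and -0.01 in experiment 1, and its difference between experiments was 0.00 in transgenic limbs and -0.45 in wildtype limbs.

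When arrays were also centred on a common median, limma with the block called 4 members higher in transgenic limbs at an adjusted p under 0.05, against 0.388% of probe sets, and 1 member lower, against 0.109%. Those higher were Myl4 (adjusted p = 0.00513), Tnnc2 (0.0114), Myh3 (0.0342) and Tnnt3 (0.0460). The member lower was Myl7, by a log2 change of -0.28 (adjusted p = 0.0337).

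Of the 10 filament, Z-disc and M-line genes, 4 passed the fold rule upward with the block (Neb, Myom1, Actn2 and Mybph), 6 fell between the experiments and 1 rose. Actn2, the alpha actinin that crosslinks actin at the Z-disc, had 9.30 and 9.23 in transgenic limbs of experiments 2 and 1, against 8.93 and 9.15 in wildtype limbs. The genotypes did not overlap, which was so for 5.67% of all probe sets. The log2 fold change of Actn2 was 0.22 (SE 0.11 without the block and 0.07 with it, limma adjusted p = 0.268 with the block). Its difference between experiments was -0.07. Tpm2, the beta tropomyosin of the thin filament, had 9.43 and 9.05 in transgenic limbs of experiments 2 and 1, against 9.22 and 9.05 in wildtype limbs. Tpm2 was the member with the largest increase between experiments, 0.28 on the log2 scale (SE 0.06, limma adjusted p = 0.00187 with genotype as a term).

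Among the others of this class, Ttn, the giant spring of the sarcomere, fell by 0.77 between experiments and had a genotype change of 0.14. Myoz2, a calcineurin-binding protein of the Z-disc, fell by 0.59 and had a genotype change of 0.19. Neb, the ruler of the thin filament, and Myom1, which links thick filaments at the M-line, fell by 0.43 and 0.41 and had genotype changes of 0.22 and 0.21. The myosin-binding proteins Mybpc1 and Mybph fell by 0.29 and 0.28, with genotype changes of 0.16 and 0.21. Des, the intermediate filament protein that ties myofibrils together, and Ldb3, a Z-disc adaptor, did not pass the test between experiments, with differences of -0.11 each. Ldb3 had 6.999 and 7.11 in transgenic limbs of experiments 2 and 1, against 6.90 and 7.01 in wildtype limbs, and its genotype differences, 0.09 and 0.10, were nearly equal.

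The genes of the membrane and of calcium handling moved in different directions between experiments. Casq2, the calcium store protein of slow and cardiac sarcoplasmic reticulum, had 8.47 and 9.26 in transgenic limbs of experiments 2 and 1, against 8.19 and 9.06 in wildtype limbs. It fell by 0.83 between experiments (SE 0.06, limma adjusted p = 1.01e-08 with genotype as a term), and its genotype change was 0.24 (adjusted p = 0.124 with the block). Cav3, the caveolin of muscle membranes, fell by 0.43 and had genotype differences of 0.07 in experiment 2 and 0.06 in experiment 1. Ryr1, the calcium release channel of skeletal muscle, had 7.23 and 6.94 in transgenic limbs of experiments 2 and 1, against 7.13 and 6.97 in wildtype limbs. Ryr1 rose by 0.22 between experiments (SE 0.06, limma adjusted p = 0.00599 with genotype as a term) and had a genotype change of 0.03. Cacna1s, the voltage sensor that opens Ryr1, had 6.98 and 6.97 in transgenic limbs of experiments 2 and 1, against 6.70 and 6.85 in wildtype limbs. All its values lay below the array medians of all probe sets, 7.81 to 7.85. The genotypes did not overlap, which was so for 5.67% of all probe sets. The log2 fold change of Cacna1s was 0.21 (SE 0.09 without the block and 0.06 with it, limma adjusted p = 0.257 with the block).

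In the class of energy supply and assembly, 0 of 3 genes passed the fold rule with the block. Ckm, the muscle creatine kinase, had 7.28 and 7.14 in transgenic limbs of experiments 2 and 1, against 7.35 and 7.28 in wildtype limbs. With Myl7, it was the other member with a lower mean in transgenic limbs, by a log2 change of -0.11 (SE 0.06, limma adjusted p = 0.701 with the block). Smyd1, a methyltransferase needed for myosin folding and myofibril assembly, had 7.58 and 7.65 in transgenic limbs of experiments 2 and 1, against 7.51 and 7.69 in wildtype limbs, a genotype change of 0.01. Klhl41, which stabilises nebulin, fell by 0.65 between experiments and had a genotype change of 0.15.

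Between the experiments, 24 of 32 members fell and 2 rose, Tpm2 and Ryr1, at an adjusted p under 0.05 from limma with genotype as a term. Over all probe sets the shares were 19.1% lower and 20.1% higher. The 24 were 2 of 2 developmental, 4 of 4 slow, 4 of 4 fast and 4 of 4 cardiac-type isoforms, Acta1, 6 of 10 filament genes, 2 of 4 genes of calcium handling and 1 of 3 of assembly. Both arrays of experiment 2 lay below both arrays of experiment 1 for 26 members, against 31.9% of probe sets. The median difference of the members was -0.33 in transgenic limbs and -0.48 in wildtype limbs, against 0.01 and 0.00 over all probe sets. The difference in transgenic limbs lay above that in wildtype limbs for 27 members, the same 27 as above by construction, since both are one difference of differences. Litter, exact stage, dissection and hybridization may all differ between the experiments and cannot be told apart.

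**Figure D5:**
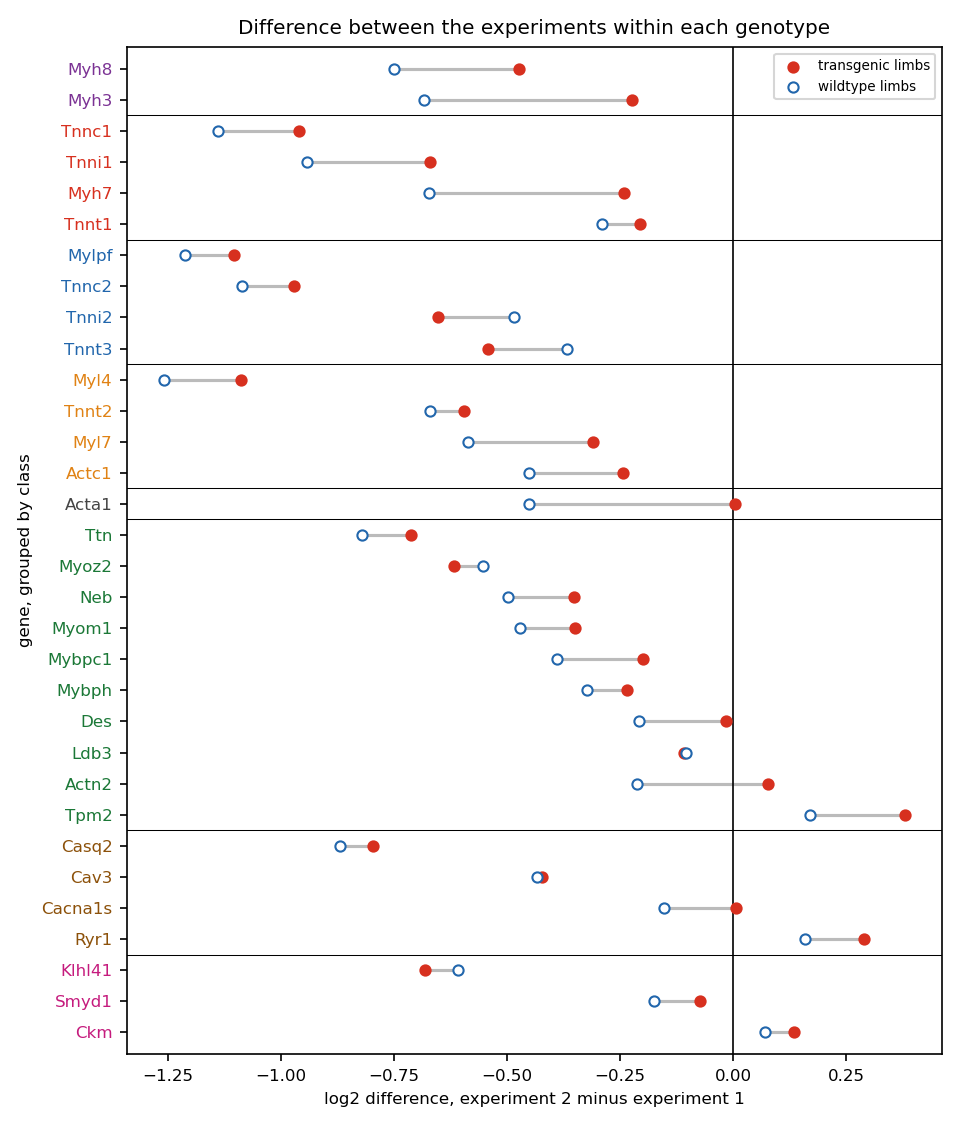
Difference between experiment 2 and experiment 1 (x axis, log2 units) for each member in transgenic limbs (red points) and wildtype limbs (open blue points), grouped by class; each point is 1 array minus 1 array. Myl4, Mylpf, Tnnc1 and Tnnc2 lie near or below -1 in both genotypes, and Tpm2, Ryr1 and Ckm lie above 0 in both.

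A second list held sarcomere genes that are not members. Of 24 listed, 20 were measured. With the block 4 passed the fold rule upward and 1 downward, against 1.23% and 0.321% of all probe sets. Between experiments 7 fell and 1 rose, against 19.1% and 20.1%. Myot, a Z-disc protein, had 7.13 and 7.89 in transgenic limbs of experiments 2 and 1, against 6.78 and 7.57 in wildtype limbs, which gave a fold change of 0.33 on the log2 scale (SE 0.06, limma adjusted p = 0.0129 with the block). Sln, the regulator of the calcium pump, had a change of 0.35 (adjusted p = 0.0131 from the same fit) and fell by 0.93 between experiments. Lmod3, which lengthens thin filaments, had 0.23 and fell by 0.48. The medians of these 20 genes were 0.03 by genotype and -0.10 between experiments.

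Of 13 measured genes listed as myogenic regulators, including the myosin gene Myh7b, 0 passed the fold rule by genotype with the block. Between experiments 4 fell and 2 rose, against 19.1% lower and 20.1% higher over all probe sets. Myog, which drives differentiation of myoblasts, fell by 0.82 and Mef2c, a partner of the myogenic factors, by 0.72, whereas Myod1, which commits myoblasts, rose by 0.63. Their genotype changes were 0.15, 0.18 and 0.13. Of 7 measured genes of the neuromuscular synapse 1 fell, and of 9 genes listed for heart muscle 1 fell and 2 rose between experiments. Hand2 was 1 of those that rose, by 0.94, and the median of the heart muscle list was -0.06. By genotype, 0 of either list passed the fold rule with the block.

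Some markers of other cell types also differed with the groups. Over all probe sets, 1.23% passed the fold rule upward with the block and 0.321% downward. Between experiments 19.1% of all probe sets fell and 20.1% rose. The lists are short, and whether their counts differ from these shares was not tested. Of 6 cartilage genes, 3 passed the fold rule upward with the block (Matn1, with 0.34, Acan, with 0.31, and Col11a1, with 0.30). The others had changes between -0.01 and 0.09, so the list median of 0.19 lay between these groups. Between experiments 2 cartilage genes fell and 3 rose. Of 5 neuron genes, 1 passed upward by genotype, Nefm, with differences of 0.04 in experiment 2 and 0.39 in experiment 1. Between experiments 5 of 5 fell, with a list median of -0.28. Of 6 epidermis genes, 2 passed upward by genotype (Krt8 and Krt18), but Epcam had a change of -0.11 and the list median was 0.01. Between experiments 4 of them fell, with a list median of -0.45. Of 4 measured erythroid genes, 1 passed downward by genotype, and 1 fell and 2 rose between experiments. Of 8 smooth muscle genes 1 passed upward, Actg2, with differences of 0.61 in experiment 2 and -0.14 in experiment 1. Acta2 and Tagln had 0.37 and 0.39 in experiment 2, and 0.01 and -0.03 in experiment 1. The median difference of the list was 0.09 in experiment 2 and -0.04 in experiment 1. Between experiments 2 smooth muscle genes fell and 1 rose. Xist, the RNA of the inactive X chromosome, had 6.42 and 6.58 in transgenic limbs of experiments 2 and 1, against 9.36 and 9.62 in wildtype limbs. Eif2s3y, a gene of the Y chromosome, had 8.94 and 9.02 in transgenic limbs of experiments 2 and 1, against 8.30 and 8.004 in wildtype limbs. The genotypes did not overlap in either of these sex-linked genes. The sex makeup of the pools thus differed by genotype in both experiments. Its part in the genotype results cannot be told apart from that of the transgene, with or without the block. The part of the other differences in the results on the members was not tested.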

How the data were processed

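The values used are on a log2 scale, as the authors deposited them for 4 Affymetrix GeneChip arrays of the mouse genome. The authors had log transformed perfect-match probe values, quantile normalized them and fitted mixed models in JMP Genomics, version 4, with probes grouped by Entrez gene (custom CDF version 13); how probes were summarised to the deposited log2 values is not given in the sources used here, nor is signal over background, and the number of arrays limits the precision. Near-identical genes (actins, myosin heavy chains) may share probes, which was not assessed. The table of 16556 rows held 64 control probe sets, which were left out; gene symbols came from the platform annotation (15270 of 16492 probe sets with 1 symbol, 1222 with none).

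Genotypes were compared with limma 3.58.1 in R 4.3.3 (lmFit, eBayes, Benjamini-Hochberg over all probe sets) without a block and with the experiment as a replicate block. The study's methods likewise name no term for the experiment. They modelled single probe values, however, so the study's p-values and those given here are not comparable. The experiments were compared with genotype as a term. The pairing comes from the shared title suffix and the submitters' account of 2 hybridization experiments; the paired arrays deviated together from their group means (correlation 0.857 across probe sets), and Pearson's r across probe sets was 0.997 and 0.998 within the experiments, 0.986 between transgenic and 0.987 between wildtype arrays. The block left 1 residual degree of freedom, to which limma added 16.4 prior ones (2 and 2.40 without it), so the blocked errors come mainly from the spread pooled across genes. A fold change is on the scale of the log2 values. The fits were tested on simulated data.

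Members, classes and the other lists were chosen with earlier results of these data known. Values on 4 arrays with full statistics are given for members past an adjusted p of 0.05 by genotype, the 6 with the largest and 4 with the smallest change by genotype, and the same by experiment; Acta1 and the genes in single sentences were added after their values were seen, as were the genes chosen for printed sequence. Other lists name up to 3 genes with the largest change by genotype.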

Additional observations from a re-analysis of the deposited data

Results flagged for a closer look

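For 4 members the transgenic array was the higher one in experiment 2 and the lower one in experiment 1. The genotype difference in experiment 2 exceeded that in experiment 1 by 0.456 for Acta1, 0.192 for Des, 0.132 for Ryr1 and 0.103 for Smyd1 on the log2 scale. With 1 array of each genotype in each experiment, these differences were not tested.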

How the results depend on the processing

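With no block and no other change of setting, 0 members passed the fold rule by genotype in either direction. The upward count was 16 with the replicate block and 15 with the replicate block and centred arrays. Without a block it was 1 after repeated quantile normalization and 1 with an intensity trend. With 1 array left out and no block it ran between 0 and 3 (3 without wildtype replicate 1). The downward count was 1 with the block, with the block and centred arrays, and without wildtype replicate 2, and 0 otherwise. At an adjusted p under 0.05, 2 members passed in either direction with the block and 5 with the block and centred arrays. With 1 array missing and no block, genotype and experiment are no longer balanced. The members' median change by genotype, 0.20 with all arrays, then ran between -0.0725 (without wildtype replicate 2; -0.0138 without transgenic replicate 1) and 0.45. The range over the 4 left-out arrays crossed 0 for 26 of 32 members, all but Actn2, Cacna1s, Ckm, Tnnt1, Ldb3 and Mybph. Among the 16 with full values it did so for Myl4 (-0.30 to 0.96), Tnnc2 (-0.24 to 0.84), Tnnt2 (-0.11 to 0.56), Casq2 (-0.19 to 0.68), Tnnt3 (-0.0051 to 0.54), Myh3 (-0.0248 to 0.66), Myl7 (-0.56 to 0.0303), Smyd1 (-0.0737 to 0.10), Ryr1 (-0.12 to 0.17), Tpm2 (-0.0817 to 0.30), Mylpf (-0.38 to 0.83) and Tnnc1 (-0.35 to 0.79). Between experiments, the count of 24 lower members ran from 19 (of 22 above the 50th percentile of signal) to 26 (after repeated quantile normalization), and the median of -0.44 from -0.51 to -0.33. With 1 array left out that contrast has no residual degrees of freedom, so no count was made. With 2 arrays per genotype, a change that misses the threshold is not shown to be absent.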
